A study of Homo sapiens with 6 samples.

Results

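The abundant circular RNAs (circRNAs) of PANC-1-GR and PANC-1 cells are those with 30 or more back-splice junction reads summed over all 6 libraries. They were selected on this sum alone, which took 357 of the 7746 listed circles (4.61%), from 293 host genes. PANC-1 cells were grown out of a human duct carcinoma of the pancreas, and PANC-1-GR is 1 resistant line obtained from them with Gemcitabine, a nucleoside analogue used against this cancer. The drug was started at 0.1 µg/ml, had reached 200 µg/ml after 40 weeks, and was then given at intervals at 10 µg/ml, whereas PANC-1 is labelled as the control. Both lines were kept in RPMI1640 medium with fetal bovine serum, penicillin and streptomycin. Each line gave 3 total RNA libraries, with 9222 to 13689 junction reads in PANC-1-GR and 9429 to 11964 in PANC-1. No source says whether libraries of a line stem from different cultures, so every p-value below measures a spread that may be technical. The extraction note attached to the libraries speaks of tumor tissue and plasma, while every label names a cell line. Of 67 marker genes of pancreatic duct, fibroblast, blood, endothelial, acinar and endocrine cells, 2 had a listed circle and none an abundant one, so circles could not be used to check the cell type. Because PANC-1-GR is a single line, the selection and any other difference between the 2 cultures cannot be told apart.

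A circRNA is formed when the spliceosome joins the end of an exon to the beginning of the same exon or of an exon upstream, which leaves a closed loop without free ends. Such loops resist exonucleases and can build up in cells while the linear mRNA of the same gene is turned over. Long introns on both sides of the looped exons, in particular introns that hold inverted repeats able to pair with each other, are known to favor back-splicing. A read that crosses the back-splice junction identifies the loop, so each circle was counted by the reads over 1 short sequence.

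The back-splice junctions of some of the most read circles are shown because these bases are all that separates a read of the circle from a read of its mRNA. Each line holds the last 15 bases of the circle in lower case and then its first 15 bases in capitals, so the junction lies where the capitals begin. The sequences were read from GENCODE 29 transcripts at the exons that match each circle in span and in spliced length, and they are coding throughout.
ASXL1 hsa_circ_0001136, exons 2 to 4 (GRCh38 chr20:32366384-32369123, plus strand): cttttcacgctcaagGTATTAGAAAACTAC
RARS hsa_circ_0001550, exons 2 to 5 (GRCh38 chr5:168488602-168494650, plus strand): ggagagaataaaaagGAAGAAGAGATTAAA
SPECC1 hsa_circ_0000745, exon 4 (GRCh38 chr17:20204333-20205912, plus strand): agtctgctggccaagGGGCCTTTACAACAA
RHOBTB3 hsa_circ_0007444, exons 6 to 7 (GRCh38 chr5:95755396-95763620, plus strand): aaaacaccaggaaagAAAAAATGCCTGTCT
CDYL hsa_circ_0008285, exon 2 (GRCh38 chr6:4891713-4892379, plus strand): ctgttaacgggaaagGTTGAAAGGATTGTT
RTN4 hsa_circ_0001006, exons 2 to 3 (GRCh38 chr2:54982515-54987698, minus strand): gttgattctctgaagTTGTTGACCTCCTGT
The whole ASXL1 loop is only 195 bases long. It is given here once, opened at the junction, with the 15 bases on each side of the junction in capitals.
ASXL1 hsa_circ_0001136 complete: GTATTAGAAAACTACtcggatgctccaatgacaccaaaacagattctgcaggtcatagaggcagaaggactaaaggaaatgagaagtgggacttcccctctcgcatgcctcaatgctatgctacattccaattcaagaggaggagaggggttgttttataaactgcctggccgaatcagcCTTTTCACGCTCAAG

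The abundant circles held 24878 of the 66978 junction reads (37.1%). Their share was 37.5%, 39.1% and 37.2% of the reads in the 3 PANC-1-GR libraries, against 35.7%, 36.3% and 37.5% in the 3 PANC-1 libraries. The mean was 38.0 ± 1.01% in PANC-1-GR and 36.5 ± 0.936% in PANC-1 (SD, n = 3 each), and the lines overlapped, since PANC-1 replicate 3 lay above PANC-1-GR replicate 3. Reads were spread unevenly within the set. The first circle alone held 1.89% of all junction reads, the first 10 held 6.63% and the first 100 held 20.6%, and 150 circles were enough for 25% of the reads. At the other end, 189 of the 357 circles had 30 to 49 reads, 121 had 50 to 99, 37 had 100 to 199 and 10 had 200 or more, with a median of 48. In all, 353 abundant circles (98.9%) were seen in every library; the read minimum itself makes this likely.

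**Figure D1:**
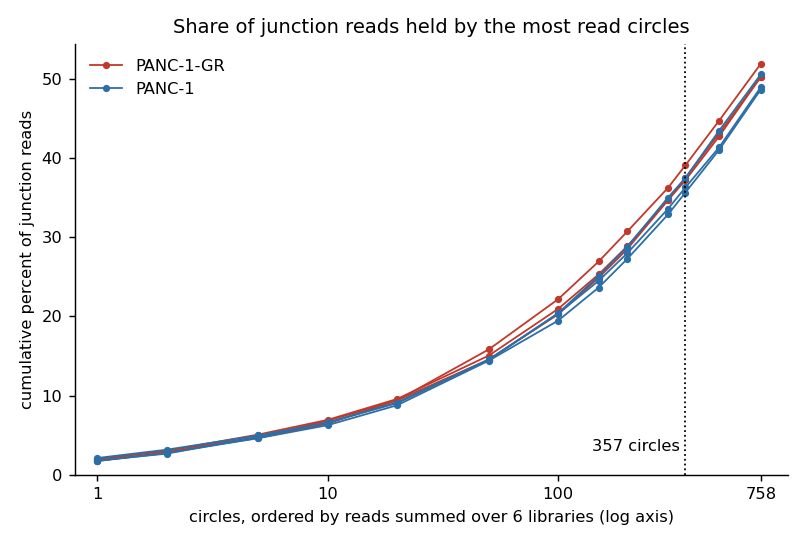
Cumulative percent of the junction reads of each library (y axis) held by the circles in order of their reads summed over 6 libraries (x axis, log scale), with 1 line per library. The 6 curves run close together, and at the dotted line, where the 357 abundant circles end, they lie between 35.7% and 39.1%.

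The rank order at the top was nearly the same in both lines. Levels are given per 10000 junction reads, that is, as a circle's reads scaled to the total of its library. The first circle, hsa_circ_0000284, is exon 2 of HIPK3, a nuclear serine/threonine kinase, and lies on chromosome 11 from 33307959 to 33309057 (hg19). It measured 201, 174 and 194 in the PANC-1-GR libraries, against 175, 180 and 212 in the PANC-1 libraries, and was first in each of the 6. The lines overlapped completely, and the log2 fold change, PANC-1-GR over PANC-1, was -0.0022 with a 95% interval of -0.25 to 0.25. The circle ranked second in all 6 libraries was hsa_circ_0001346 of RNF13, an endosomal ubiquitin ligase. It measured 103, 112 and 111 in PANC-1-GR, against 99.5, 87.4 and 105 in PANC-1, so the lines overlapped here as well.

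Places 3 to 10 by summed reads went to circles of ASXL1 (hsa_circ_0001136, 477 reads), FAT1 (hsa_circ_0001461, 408), RARS (hsa_circ_0001550, 396), SPECC1 (hsa_circ_0000745, 289), XPO1 (hsa_circ_0001017, 254), RHOBTB3 (hsa_circ_0007444, 248), CPSF6 (hsa_circ_0000417, 211) and again RNF13 (hsa_circ_0003502, 207). ASXL1 codes for a Polycomb-associated chromatin protein, and its 195-base circle measured 81.8, 58.6 and 61.5 in PANC-1-GR, against 65.2, 87.4 and 66.8 in PANC-1. FAT1 codes for a giant protocadherin, and its circle is a single exon of 3283 bases. This circle measured 64.3, 48.8 and 70.7 in PANC-1-GR, against 52.7, 68.7 and 57.3 in PANC-1. RARS codes for arginyl-tRNA synthetase, and its circle measured 58.4, 72.7 and 40.4 in PANC-1-GR, against 71.0, 56.9 and 56.2 in PANC-1. For all 3 circles the lines overlapped.

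SPECC1, which codes for a cytospin of the actin and microtubule cytoskeleton, gave the one circle of the 20 most read whose lines did not overlap. It measured 44.6, 51.0 and 45.0 in PANC-1-GR, against 42.6, 38.2 and 38.2 in PANC-1, a log2 fold change of 0.21 with a 95% interval of -0.20 to 0.63. The largest log2 fold change among the 20, 0.48, was that of hsa_circ_0000417 from CPSF6, a subunit of the cleavage factor that sets polyadenylation sites. It measured 27.0, 39.0 and 46.8 in PANC-1-GR, against 20.1, 33.9 and 24.4 in PANC-1, with overlap between the lines, and the edgeR quasi-likelihood test gave it an unadjusted p of 0.0461 and an adjusted p of 0.930. The lowest was -0.37 for hsa_circ_0008285 of CDYL, a chromodomain protein, at 19.0, 33.6 and 23.0 in PANC-1-GR, against 30.9, 33.1 and 29.7 in PANC-1. All 20 had a 95% interval of the log2 fold change that stayed between -1 and 1, that is, inside a 2-fold change either way.

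**Figure D2:**
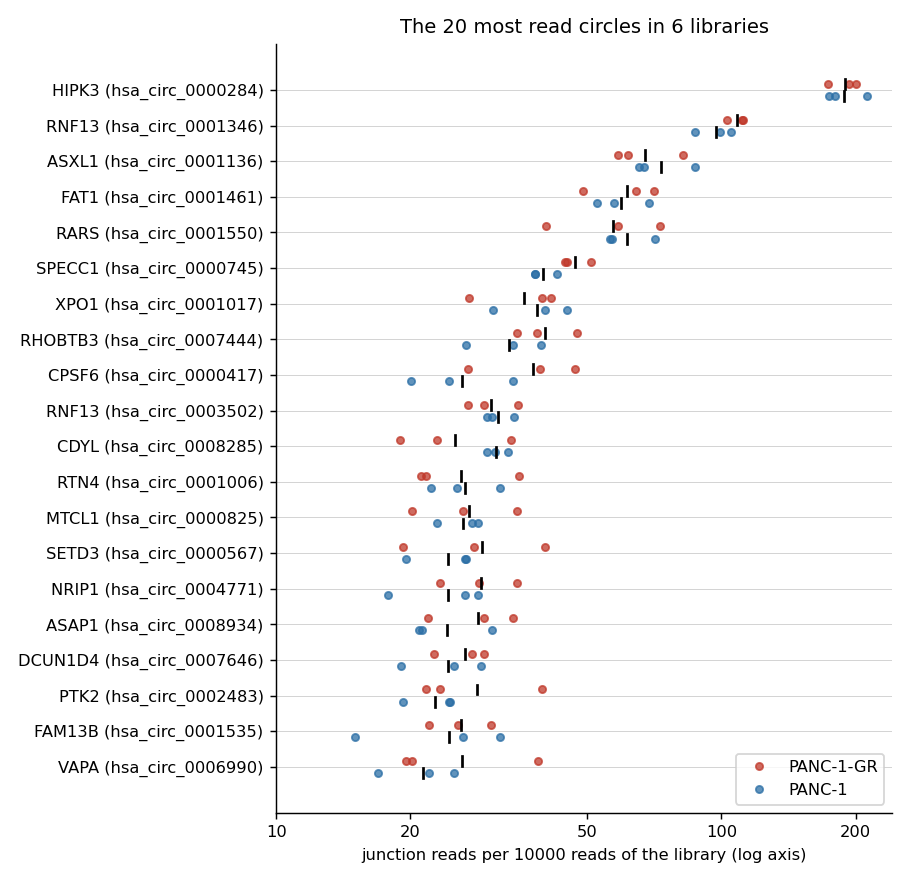
Level of each of the 20 most read circles in every library, in junction reads per 10000 on a log axis, with 1 point per library, PANC-1-GR above PANC-1 in each pair and the black bar at the mean of 3 libraries. HIPK3 lies between 174 and 212 in all 6 libraries, and points of the 2 lines overlap for all of the 20 circles except SPECC1.

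Of the 10 circles with the highest mean level in a line, 9 were shared between PANC-1-GR and PANC-1, as were 17 of the first 20 and 79 of the first 100. Below the top the order was looser within a line too. Over the 357 circles, Spearman's rank correlation between libraries ran from 0.453 to 0.568 for the 9 pairs of different lines and from 0.529 to 0.604 for the 6 pairs of the same line. These correlations are across circles that share their libraries, and they carry no test. Among the 100 most read circles, the widest gaps in rank toward PANC-1-GR were those of PRKAR1B hsa_circ_0008039 (rank 53 in PANC-1-GR and 169 in PANC-1), HOMER1 hsa_circ_0006916 (57 and 156), the ZNF286B junction at chromosome 17 from 18574180 to 18575615 (70 and 144) and RNF220 hsa_circ_0012152 (44 and 111). The widest gaps the other way were those of CAMSAP1 hsa_circ_0001900 (133 and 28), TNPO3 hsa_circ_0001741 (151 and 38), OMA1 hsa_circ_0000072 (154 and 60) and a second RARS circle, hsa_circ_0001551 (130 and 58).

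Most abundant circles were made of whole exons. The table placed 328 of 357 (91.9%) in the exonic category, against 84.7% of the other listed circles, with 23 as sense overlapping and 6 as intronic. A circBase ID was given to 326 (91.3%), against 58.2% of the others, and 11 were in none of the 3 catalogs that the table names. Of 14 well known circles whose circBase ID and host gene were both found in the list, 10 were abundant. Among them were those of HIPK3, CDYL, SETD3, RHOBTB3, ZKSCAN1 (121 reads), FBXW7 (105), ZNF609 (67) and FOXO3 (58), while that of SMARCA5 (7 reads) stayed under the minimum. For exonic circles the spliced length had a median of 479.5 bases (quartiles 331 and 728), against 480 bases (quartiles 312 and 783) for the others, so the lengths were close.

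The position of the circles in their genes differed more. A total of 319 abundant circles could be placed on exons of a GENCODE 29 transcript, and 178 of them (55.8%) started at exon 2, the first exon with a splice acceptor. Among the other listed circles 1950 of 6033 (32.3%) did, and among those with 10 to 29 reads 432 of 1028 (42.0%) did. With only the most read circle of each host gene counted, the shares were 57.3% for abundant circles and 39.1% for genes without an abundant circle. Among the 20 most read circles 12 started at exon 2, including those of HIPK3, ASXL1, FAT1, RARS, XPO1, CPSF6 and CDYL. The start codon of the host gene lay inside 87 of the 317 abundant circles placed on a coding transcript (27.4%), against 14.9% of the others. A single exon made up 36 of the 319 (11.3%), against 5.12%, with a median exon length of 783.5 bases in the abundant circles and 461 in the others. Of 217 abundant circles that were coding throughout, 67 (30.9%) had a length divisible by 3, against 37.7% of 4935 others. The exon number depends on the transcript chosen, circles of 1 gene share exons, and these shares are descriptions without a test.

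The introns beside the circles were long. The intron upstream of an abundant circle had a median of 19188 bp and the one downstream 15828 bp, against 12224 and 10415 bp for circles with 10 to 29 reads and 7064 and 5992 bp for circles under 10 reads. For abundant circles that started at exon 3 or later the upstream median was 10516 bp, against 7528 bp for such circles with 10 to 29 reads and 5692 bp for such circles among all others. The host genes at the top spanned a wide range. CDYL had introns of 114905 and 43135 bp around its circle and HIPK3 28523 and 40998 bp, while RARS had only 2058 and 664 bp, and MTCL1, which codes for a microtubule crosslinking factor, had 461 bp upstream of the circle hsa_circ_0000825 and 57336 bp downstream.

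**Figure D3:**
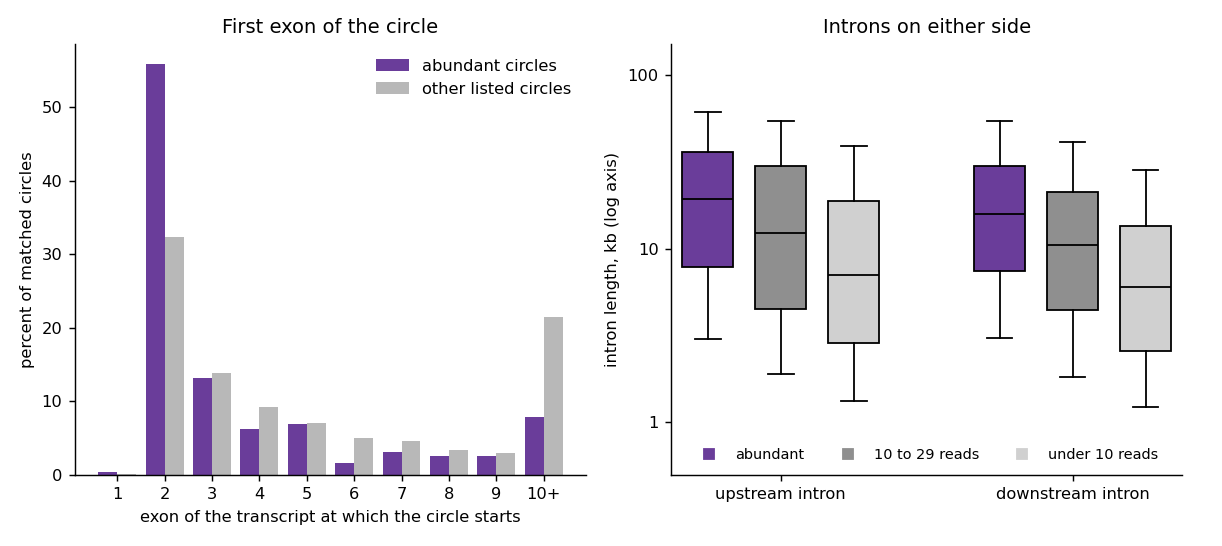
On the left, the percent of exon-matched circles (y axis) that start at each exon of their transcript (x axis), for the abundant circles and the other listed circles. On the right, the lengths of the introns on either side in kb (log axis), with the box at the quartiles, the line at the median and whiskers at percentiles 10 and 90, for abundant circles, others with 10 to 29 reads and others under 10 reads. Exon 2 starts 55.8% of abundant circles and 32.3% of the others, and the median upstream intron is 19188 bp in abundant circles.

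Few host genes gave many abundant circles. Of the 293 host genes, 254 had 1, 26 had 2 and 13 had 3 or more, and these 13 genes gave 51 of the circles. RNF13 had the most, with 7 circles and 1204 reads. Of these 7, 6, all but hsa_circ_0006801, began at the same base, position 149563798 of chromosome 3 (hg19), and differed in where they ended. Levels fell steeply within this group. The circle of exons 3 to 9 made up 58.7 ± 2.82% of the reads of these 7 circles in PANC-1-GR and 55.4 ± 1.02% in PANC-1 (SD, n = 3 each). The circle of exons 3 to 8, hsa_circ_0003502, made up 16.3 ± 0.963% in PANC-1-GR and 18.0 ± 1.75% in PANC-1, and that of exons 3 to 5, hsa_circ_0067716, 11.2 ± 1.52% in PANC-1-GR and 11.5 ± 0.781% in PANC-1. The order of these 3 was the same in both lines, and none of the 7 circles was called different.

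The same pattern of a fixed start was seen in DCUN1D4, which codes for a factor of cullin neddylation. All 3 of its abundant circles began at position 52729603 of chromosome 4 (hg19), as did 6 of its 7 listed circles, with 98.5% of the reads. Their junctions are shown because the capitals, the shared first bases, are the same in each while the end of the circle changes.
DCUN1D4 hsa_circ_0007646, exons 2 to 7 (GRCh38 chr4:51863437-51891851, plus strand): aatgacttctctccaATTTTCAGCTGAACT
DCUN1D4 hsa_circ_0001410, exons 2 to 5 (GRCh38 chr4:51863437-51877854, plus strand): tctatgaatatgcagATTTTCAGCTGAACT
DCUN1D4 hsa_circ_0069718, exons 2 to 8 (GRCh38 chr4:51863437-51899378, plus strand): tttgactttgcacggATTTTCAGCTGAACT
The circle of exons 2 to 7 had 31, 27 and 30 reads in PANC-1-GR, against 30, 34 and 18 in PANC-1. That of exons 2 to 5 had 20, 10 and 16 reads in PANC-1-GR, against 11, 18 and 14 in PANC-1, and that of exons 2 to 8 had 11, 7 and 10 in PANC-1-GR, against 8, 6 and 4 in PANC-1. The lines overlapped for the first and second of them. For the third they did not, at 8.04, 7.59 and 9.18 per 10000 in PANC-1-GR, against 6.69, 5.09 and 4.24 in PANC-1, but it was not called. The junction from the same start to position 52780244, one of the pair that the study went on to silence, had 15 reads, 8, 0 and 5 in PANC-1-GR and 2, 0 and 0 in PANC-1, and so is not an abundant circle. The study measured both of the pair by qRT-PCR, with the most significant rise in PANC-1-GR among the circles it checked. It also reports both as higher in plasma of patients who did not respond to Gemcitabine, and it overexpressed both in cells.

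TRIO, which codes for a guanine nucleotide exchange factor of small GTPases, showed the reverse arrangement, with a shared end. Of its 4 abundant circles, 3 ended at position 14336836 of chromosome 5 (hg19), the end of exon 11. In their junctions the lower-case bases are the same and the capitals change.
TRIO hsa_circ_0005260, exons 9 to 11 (GRCh38 chr5:14316513-14336727, plus strand): acccatgtgaaagagGTCAGCCAAGATGGG
TRIO hsa_circ_0005683, exons 5 to 11 (GRCh38 chr5:14290716-14336727, plus strand): acccatgtgaaagagACAAATATGGTCTCT
TRIO hsa_circ_0008646, exons 10 to 11 (GRCh38 chr5:14330778-14336727, plus strand): acccatgtgaaagagGTGCTAGACTGGATC
The first of them measured 22.2 ± 4.46 per 10000 in PANC-1-GR and 27.4 ± 2.99 in PANC-1, the second 12.0 ± 4.05 in PANC-1-GR and 11.3 ± 1.84 in PANC-1, and the third 8.03 ± 2.59 in PANC-1-GR and 5.42 ± 0.473 in PANC-1 (SD, n = 3 each). The order was again the same in both lines.

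Differences between the lines were tested on the counts with the edgeR quasi-likelihood test across the 969 circles with at least 3 reads in at least 3 libraries, and all 357 abundant circles were among them. The call asked for a 2-fold difference or more and an unadjusted p of 0.05 or less. By this rule 20 abundant circles (5.60%) were called, against 4.23% of all tested circles, with 13 called higher in PANC-1-GR (3.64%, against 2.79% of all tested) and 7 called lower (1.96%, against 1.44% of all tested). With Benjamini-Hochberg adjustment the edgeR quasi-likelihood test left 0 circles under 0.05. The smallest adjusted p was 0.653, with 28 abundant circles at an unadjusted p of 0.05 or less (7.84%, against 5.06% of all tested). DESeq2 also had 0 circles under an adjusted p of 0.05, and 14 tested circles under an unadjusted one. The number of calls also depends on the tool, and DESeq2 called 4 abundant circles higher and 3 lower, all of them among the 20. The minimum of 30 reads does not bind the lines equally, since 35 abundant circles had fewer than 15 reads in PANC-1 and 32 had fewer than 15 in PANC-1-GR. Of the 20 called circles, 16 were of this kind and reached the minimum mainly through 1 line. The other 4 were those of CAMSAP1, TNPO3, ATXN2 and IGF1R. Those of CAMSAP1, DCLK2, FCHO2 and ARHGAP35 were called whichever library was left out, and each of the other 16 lost its call without at least 1 library.

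None of the 47 circles with 100 or more reads was called. The most read called circle was hsa_circ_0001900 of CAMSAP1, a protein of microtubule minus ends, with 98 reads. It measured 11.0, 7.59 and 8.27 per 10000 in PANC-1-GR, against 19.2, 18.7 and 23.3 in PANC-1. The lines were apart by a log2 fold change of -1.15 ± 0.347 (SE), and the edgeR quasi-likelihood test gave it an unadjusted p of 0.000902 and an adjusted p of 0.653. Next by reads was hsa_circ_0001741 of TNPO3, a transportin that carries splicing factors into the nucleus. It measured 11.7, 6.51 and 6.43 in PANC-1-GR, against 16.7, 17.0 and 18.0 in PANC-1, again without overlap and with a log2 fold change of -1.02 ± 0.366 (SE). The third was hsa_circ_0005480, exon 2 of DCLK2, a doublecortin-like kinase. It measured 2.19, 7.59 and 3.67 in PANC-1-GR, against 12.5, 11.9 and 10.6 in PANC-1, also without overlap. The junctions of these 3 circles are shown as their called positions, with the first bases of the circle in capitals.
CAMSAP1 hsa_circ_0001900, exons 2 to 3 (GRCh38 chr9:135881633-135883078, minus strand): ttctggatcaacaagATAACATCCCTGAGG
TNPO3 hsa_circ_0001741, exons 2 to 4 (GRCh38 chr7:129014979-129018157, minus strand): gtagtatctctattgGTTCATGCATGGGAG
DCLK2 hsa_circ_0005480, exon 2 (GRCh38 chr4:150102478-150102812, plus strand): ctggatggaaagcagGTGAGAGTTACGTGT

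The other 4 circles called lower in PANC-1-GR came from ATXN2, an RNA-binding protein (hsa_circ_0002457), SEMA3C, a secreted semaphorin (hsa_circ_0004365), RAB3IP (hsa_circ_0000419) and CUL3 (hsa_circ_0008309). RAB3IP codes for Rabin8, an exchange factor that activates Rab8, and its circle of exons 7 to 8 had 6, 2 and 3 reads in PANC-1-GR, against 9, 7 and 8 in PANC-1. CUL3 codes for a cullin scaffold of ubiquitin ligases, and its circle of exons 2 to 3 had 6, 3 and 0 reads in PANC-1-GR, against 11, 4 and 6 in PANC-1. The lines were apart for RAB3IP and overlapped for CUL3, which stood at the minimum of 30 reads.

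Among the 13 circles called higher, the largest fold was that of hsa_circ_0003571 from FCHO2, an organizer of clathrin-coated pits. It had 12, 8 and 7 reads in PANC-1-GR, against 3, 2 and 2 in PANC-1, a log2 fold change of 1.85 ± 0.598 (SE). The circle of LMTK2, a membrane-anchored kinase, was hsa_circ_0001725, with 3109 bases in exons 10 to 11. It had 14, 4 and 15 reads in PANC-1-GR, against 5, 6 and 3 in PANC-1, and overlapped because PANC-1-GR replicate 2 lay within the PANC-1 range. ZRANB1, a deubiquitinase, gave hsa_circ_0000268 with 15, 5 and 7 reads in PANC-1-GR, against 4, 3 and 5 in PANC-1, and in reads per 10000 the lowest PANC-1-GR library, at 5.42, was close to the highest PANC-1 library, at 5.30. FAM126A, a partner of the phosphatidylinositol 4-kinase complex, had 2 abundant circles that began at the same acceptor. Only the shorter, hsa_circ_0005251, was called, with 13, 6 and 6 reads in PANC-1-GR, against 3, 4 and 4 in PANC-1, while hsa_circ_0008951 had 21 reads in PANC-1-GR and 27 in PANC-1. The difference between the 2 circles was not tested. The remaining circles called higher came from IGF1R, a growth factor receptor, ARHGAP35, a GTPase activating protein, ASPH, an aspartyl hydroxylase, BPTF, a subunit of the NURF chromatin remodeler, RHBDD1, a rhomboid protease, UPF2, HLA-G and, with 2 circles, FNDC3B.

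FNDC3B, which codes for a membrane protein with fibronectin type III domains, was the one host gene with 2 called circles. All 4 of its abundant circles were higher on average in PANC-1-GR, and their summed level was 43.8, 39.0 and 40.4 per 10000 in PANC-1-GR, against 21.7, 24.6 and 24.4 in PANC-1. The 2 called circles were hsa_circ_0067985, exons 4 to 6, with 15, 6 and 7 reads in PANC-1-GR, against 4, 3 and 4 in PANC-1, and the junction at chromosome 3 from 171969050 to 171979873 (hg19), with 16, 4 and 11 reads in PANC-1-GR, against 3, 7 and 4 in PANC-1. The other 2, hsa_circ_0001361 and hsa_circ_0006156, had log2 fold changes of 0.53 ± 0.407 and 0.61 ± 0.408 (SE) and were not called, although their lines did not overlap. This gene was singled out after its values were seen, so no test is given for the sum.

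**Figure D4:**
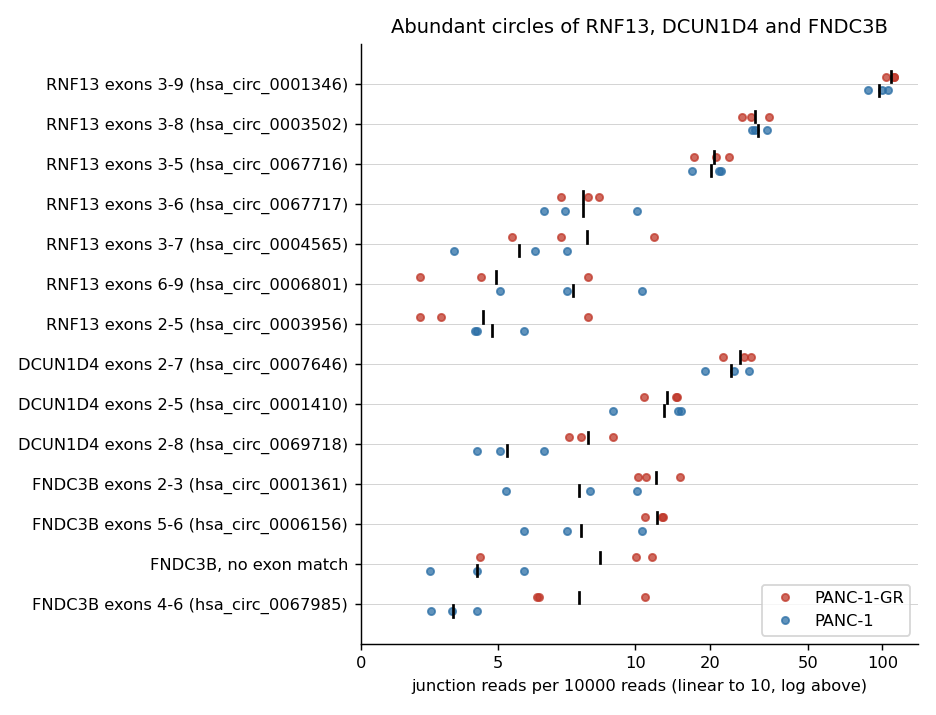
Level of each abundant circle of RNF13, DCUN1D4 and FNDC3B in every library, in junction reads per 10000 (linear to 10, log above), with 1 point per library, PANC-1-GR above PANC-1 and the black bar at the mean. The RNF13 and DCUN1D4 circles keep their order in the leading circles of both lines, and for 3 of the 4 FNDC3B circles all PANC-1-GR points lie to the right of the PANC-1 points.

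Stability was read from the interval of the difference, since a p that misses its threshold does not show that the lines were alike. The 95% interval of the log2 fold change lay between -1 and 1 for 93 abundant circles (26.1%), against 9.60% of all tested circles, and all 93 of the latter were abundant. The fit pooled the spread between libraries over the tested circles, with a median prior of infinite degrees of freedom. The SE, interval and p of a circle therefore follow its reads and fold, and hardly its own scatter between libraries. Since the abundant circles were chosen by their reads, the contrast of 26.1% with 9.60% follows largely from the selection. It does not show that abundant circles were more stable. The 612 tested circles under 30 reads had a median SE of 0.78. The interval was inside a 2-fold change for 43 of the 47 circles with 100 or more reads, for 43 of the 121 with 50 to 99 and for 7 of the 189 with 30 to 49, whose median SE was 0.27, 0.41 and 0.53 on the log2 scale. With 1 library left out the 93 became 55 to 68, the lowest without PANC-1 replicate 2. The 4 circles with 100 or more reads whose interval reached past a 2-fold change were those of GUSBP1, PLOD2, ZNF608 and SNORD113-5. For all 4 the lines did not overlap, against 12.9% of all abundant circles. At these reads both features follow from a larger fold, so they are not separate observations. PLOD2 codes for a lysyl hydroxylase of collagen, and its circle of exons 2 to 3, which has no circBase ID, measured 17.5, 22.8 and 24.8 in PANC-1-GR, against 15.9, 11.9 and 12.7 in PANC-1, with a log2 fold change of 0.64 ± 0.315 (SE). The circle of ZNF608, a zinc finger gene, measured 16.1, 27.1 and 14.7 in PANC-1-GR, against 11.7, 10.2 and 13.8 in PANC-1.

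**Figure D5:**
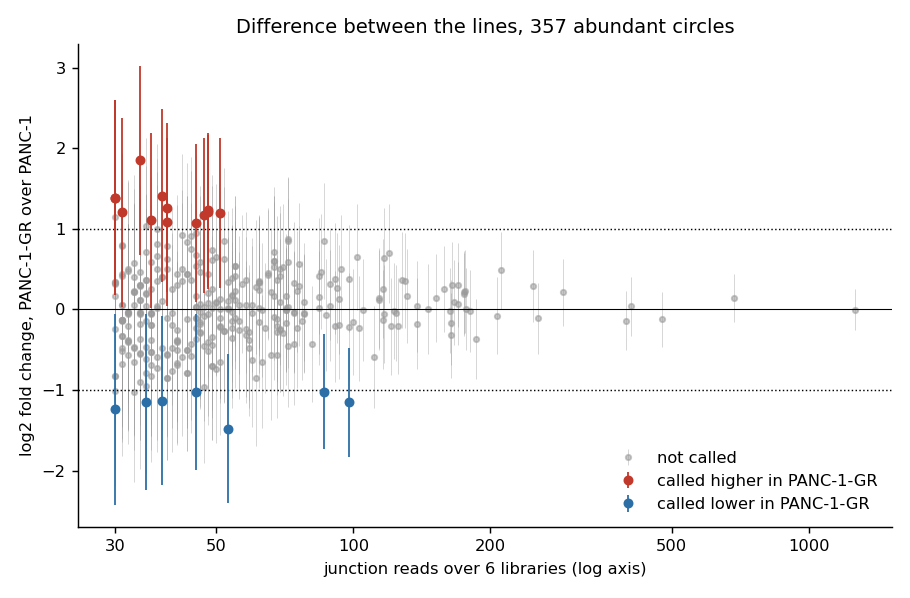
Log2 fold change, PANC-1-GR over PANC-1 (y axis), of the 357 abundant circles against their reads over 6 libraries (x axis, log scale), with vertical bars for the 95% interval of the edgeR quasi-likelihood fit and dotted lines at a 2-fold change. The 20 called circles, in color, all have 98 reads or fewer, and the intervals narrow to the right.

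The median log2 fold change of the abundant circles was 0.009, with quartiles at -0.27 and 0.35, and 181 of 357 were above 0 (50.7%). Over all tested circles it was -0.037, with quartiles at -0.43 and 0.41. The lines did not overlap for 46 abundant circles (12.9%), against 10.8% of all tested, with 33 higher in PANC-1-GR (9.24%, against 6.71% of all tested) and 13 lower (3.64%, against 4.13% of all tested). The spread between libraries of a line was set against counting noise. The Pearson dispersion, which is 1 where libraries differ by counting alone, averaged 1.25 within a line for abundant circles and 1.21 for all tested, while between the lines it averaged 1.49 for abundant circles and 1.27 for all tested. The averages were 1.16 within and 1.58 between the lines for circles with 30 to 49 reads, and 1.47 within and 1.30 between for the 47 with 100 or more. The value between the lines rests on 1 comparison per circle, and the change in order was not tested. The largest spread within a line was in hsa_circ_0006646 of PTK2, focal adhesion kinase, with 15, 12 and 5 reads in PANC-1-GR and 7, 24 and 6 in PANC-1. It was followed by hsa_circ_0000857 of ZNF236, with 12, 16 and 13 reads in PANC-1-GR and 5, 5 and 16 in PANC-1, and by hsa_circ_0001380 of UBXN7, an adaptor of p97 and ubiquitin ligases, with 14, 18 and 24 reads in PANC-1-GR and 32, 10 and 18 in PANC-1. For PTK2 and ZNF236, 1 PANC-1 library stood far above the other 2 of its line. The pooled fit does not carry this scatter into the intervals. With 69 reads each, the PTK2 circle and UBE2G1 hsa_circ_0003239 had SEs of 0.3977 and 0.3975, but within-line dispersions of 4.551 and 0.3025. The UBXN7 circle counted among the 93 with an interval inside a 2-fold change.

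Host genes were sorted into 10 classes of cell function written from general knowledge, which held 185 of the 357 abundant circles, 9 of them in more than 1 class. Kinase genes gave 27 circles (7.56% of the abundant and 5.00% of all listed circles) with 12.2% of the abundant reads, led by HIPK3. Their summed level was 453 ± 17.3 per 10000 in PANC-1-GR and 455 ± 13.9 in PANC-1 (SD, n = 3 each). Besides HIPK3 the leading ones were PTK2 hsa_circ_0002483 with 170 reads, TRIO with 164 and CSNK1G3 hsa_circ_0001522, from a casein kinase gene, with 152. Of the 27, 1 was called higher (IGF1R) and 1 lower (DCLK2). Over all abundant circles 5.60% were called, and over all tested circles 4.23%. The classes are too small for their counts of calls to be told apart from these shares, and no class count was tested. The list of kinases was not complete, and LMTK2, whose circle was called higher, is not on it and counts under no class. Genes of ubiquitin and SUMO enzymes gave 30 circles from 17 genes, led by RNF13, DCUN1D4 and MIB1, a ligase of the Notch pathway. They summed to 430 ± 8.68 per 10000 in PANC-1-GR and 423 ± 26.5 in PANC-1 (SD, n = 3 each), with 1 called higher (ZRANB1) and 1 lower (CUL3). This list was not complete either, and the ubiquitin ligase genes RNF220 and MID2 are not on it. The RNF220 circle had 86 reads and a log2 fold change of 0.85, without overlap of the lines. The MID2 circle, hsa_circ_0002153, had 91 reads and a log2 fold change of -0.21, with overlap.

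Chromatin regulators gave 23 circles, led by ASXL1, CDYL, SETD3 (176 reads), known as a methyltransferase of actin, and ARID1A, a subunit of the SWI/SNF remodeler (163 reads). They summed to 299 ± 20.5 per 10000 in PANC-1-GR and 296 ± 15.5 in PANC-1 (SD, n = 3 each), and 1 was called, higher (BPTF). Regulators of small GTPases gave 25 circles, with RHOBTB3 and ASAP1 (175 reads), an Arf GTPase activating protein, in front, and 1 called higher (ARHGAP35) and 1 lower (RAB3IP). The other classes were smaller. Cytoskeleton and motor genes gave 14 circles, with SPECC1, MTCL1 (177 reads) and DNAH14 (164) in front. RNA processing genes gave 15, membrane trafficking genes 14, cell cycle and repair genes 10, and nuclear transport and envelope genes 5, among them 2 circles of the export receptor XPO1. None of these 5 classes had more than 2 called circles. In 9 of the 10 classes the median log2 fold change lay between -0.11 and 0.12.

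The exception was the class of transcription factors, with 31 circles from 25 genes (8.68% of the abundant and 3.49% of all listed circles). Its median log2 fold change was 0.33 and 23 of the 31 circles were above 0, against 0.009 and 50.7% over all abundant circles. None of the 31 was called, against 5.60% of all abundant circles. The summed level of the class was 279, 351 and 299 per 10000 in PANC-1-GR, against 248, 260 and 257 in PANC-1, so the lowest PANC-1-GR library was above the highest PANC-1 library and PANC-1-GR replicate 2 was the highest of all. Circle by circle, the lines did not overlap for 3 of the 31, 2 higher and 1 lower in PANC-1-GR, against 12.9% of all abundant circles. Circles in front were those of NFATC3 (hsa_circ_0000711, 128 reads, log2 fold change 0.36 ± 0.302 SE), ZKSCAN1 (hsa_circ_0001727, 121 reads, -0.21 ± 0.307 SE) and ZNF608 (hsa_circ_0001523, 102 reads, 0.65 ± 0.335 SE). Several genes counted more than once, with 3 circles each from ZNF124 and ZNF236, and ZFAND6, on the list for its zinc fingers, is not known to bind DNA. The difference of the class was not tested, because its members were chosen with earlier results known.

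Outside the exonic category, the 23 sense overlapping circles held 4.98% of the abundant reads and the 6 intronic ones 1.13%. The most read, hsa_circ_0003265, with 111 reads, runs from 101403740 to 101415933 on chromosome 14 (hg19) and is listed under SNORD113-5, in an imprinted cluster of small nucleolar RNA genes. It measured 12.4, 14.1 and 13.8 in PANC-1-GR, against 15.9, 21.2 and 23.3 in PANC-1, without overlap. It was not called, with a log2 fold change of -0.59, under 2-fold, and an unadjusted p of 0.065 from the edgeR quasi-likelihood fit. A junction with the same end, listed under SNORD113-4, had 84 reads, 20, 7 and 16 in PANC-1-GR and 19, 11 and 11 in PANC-1. It starts at position 101402109, as does the junction to 101464448 that the study went on to silence, which had 3, 0 and 9 reads in PANC-1-GR and 3, 0 and 0 in PANC-1. For these junctions the table gives the whole genomic span as the spliced length, so their exon makeup is unknown.

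Some abundant junctions lie in genes with near-identical copies, where a read cannot always be given to 1 place. The junction listed under HLA-C spans 85107 bp, ZNF286B, NBPF1, GUSBP1, ALPP and CDK11B belong to duplicated families, and the called junction under HLA-G lies in the MHC class I region. Whether these junctions are circles was not tested here. The study measured the HLA-G junction by qRT-PCR with divergent primers and reports a trend that followed its sequencing. It did the same for the ARHGAP35 circle, hsa_circ_0000943. At the edge of the set, 13 circles had exactly 30 reads, among them those of ELK4, UPF2, TMEM138, ARHGEF12 and YAF2, and 15 had 29, among them those of CEP85 and PDE3B. UPF2, a factor of nonsense-mediated decay, had 22 reads in PANC-1-GR and 8 in PANC-1, and CEP85, just outside, had 21 in PANC-1-GR and 8 in PANC-1.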

How the data were processed

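Per the file header, the authors gave for every circRNA the counts of reads over its back-splice junction in each library, with hg19 position, category, host gene, circBase ID and predicted spliced length in bases. The processing notes of the submitters list BWA, CASAVA 1.8 and hg19, and the sources used here do not give the junction caller. Another 6 columns of normalized values were not used. The deposited counts were tested with edgeR 4.0.16 (glmQLFTest, R 4.3.3, 2-sided). TMM factors were applied to the totals of all listed junctions, with a prior count of 0.125 and Benjamini-Hochberg adjustment over 969 circles. DESeq2 1.42.0 and limma 3.58.1 (voom) were alternatives. The fit was also run on 5 sets of counts simulated with its own common dispersion. These cannot show how the intervals hold for circles with more scatter. In them 3.19% of unchanged abundant circles were called, and 46.1% of those with a true 2-fold change. Of the unchanged ones, 25.1% had an interval inside a 2-fold change. The minimum of 30 reads was not applied again to the simulated reads, so 3.19% is no baseline for the 5.60% called. Exons were matched to GENCODE 29 by span and spliced length, for 319 of 357 circles. The rule for names took the 20 most read circles, up to 6 called in each direction by p, up to 3 of each class, genes with 3 or more circles, known circles, the largest rank gaps and spreads, circles at the read minimum, and the most read ones without a circBase ID or outside the exonic category. The other called circles, the second FAM126A circle, GUSBP1, ZNF608 and the genes with near-identical copies were named after their values were seen. Members, classes and tests were chosen with earlier results of these data known. Linear mRNA was not analysed here.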

Additional observations from a re-analysis of the deposited data

How the results depend on the processing

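With the minimum at 20 or 50 reads there were 597 or 168 abundant circles, with 45.7% or 26.4% of the reads. With 30 reads after scaling the libraries to their mean total there were 348, of which 345 were shared. When each library was left out, the minimum was lowered in proportion to the reads that remained, which holds the count and share near their values. This gave 347 to 362 circles and a share of 36.7% to 37.3%. Of these circles, 333 to 346 were shared with the main set. All tested circles called higher and lower in PANC-1-GR numbered 27 and 14. They numbered 9 and 5 with DESeq2, 72 and 52 without the filter, 3 and 3 with at least 10 reads in 3 libraries (148 circles tested), and 12 and 9 with a prior count of 2. Without each library in turn they ran from 22 to 35 and from 9 to 24, with 24 called lower without PANC-1-GR replicate 1 and 9 without PANC-1 replicate 1. Of the 13 and 7 abundant circles called, 4 and 3 were called with DESeq2, 3 and 3 with the 10-read filter and 2 and 2 with a prior count of 2. Counting any abundant circle, 15 and 4 were called without the filter, 13 and 4 of them among the 13 and 7. Without each library 10 to 15 and 5 to 9 abundant circles were called, partly other ones, since 7 to 12 of the 13 and 3 to 6 of the 7 were called again. CAMSAP1, DCLK2 and FCHO2 were called in every alternative that gave a value, and with ARHGAP35 they were the 4 called whichever library was left out. The count of intervals inside a 2-fold change was 93. It was 50 with DESeq2 and 55 to 68 without each library (59 without PANC-1-GR replicate 2, and 58 and 55 without replicates 1 and 2 of PANC-1), in part because fewer libraries widen the intervals.

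The study speaks of paired cell lines, but no source says what the library numbers pair. Same-numbered libraries of the 2 lines hardly deviated together (correlations of 0.0236, 0.0111 and 0.0114), so the numbers were not taken as pairs. For PANC-1-GR replicates 1 and 2 the same-numbered PANC-1 library was still the closest partner, and for replicate 3 it was not. With a replicate block 21 and 7 tested circles were called higher and lower, of which 12 and 6 were abundant, and the circle of RHBDD1, that of CUL3 and the FNDC3B junction without a circBase ID lost their calls. Over the 15 alternatives the smallest adjusted p ran from 0.0534 to 1, and across 116 named circles no called one changed direction. The cause of the other changes was not tested. With 30 to 49 reads only 7 of 189 circles had an interval inside a 2-fold change.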
